A study of Homo sapiens with 4 samples.

Results

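IP-rich peaks in 3' UTRs are the listed m6A-seq peaks that the deposited region column places in a 3' UTR and that hold at least 1 input read and at least 4 immunoprecipitated (IP) reads per input read. They numbered 446 of 27678 peaks, 193 on the plus strand and 253 on the minus strand, in 382 genes. They were chosen by the read ratio itself, so the ratios and read counts below describe them and support nothing. The strands are given apart because the region column follows the genome-left end of a peak, which is its 5' end in plus-strand genes and its 3' end in minus-strand genes.

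The study profiled m6A in a human breast cancer cell line, for which the labels give both MDA-MB-231Br (in the design and growth texts; a derivative of MDA-MB-231 that homes to brain) and MDA-MB-231 itself. A mention of embryos in the extraction protocol conflicts with either name. The libraries were 2 IP libraries, from sonicated poly(A) RNA pulled down with an anti-m6A antibody, and 2 Input libraries without it, and all 4 came from the same untreated line. The table gave 1 IP and 1 Input read count per peak, treated as pooled, so peaks had no replicate values, libraries could not be compared by a test, and the line could not be checked against marker genes. Every interval on a ratio or a share below is an exact 95% Clopper-Pearson interval and covers counting error only.

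N6-methyladenosine (m6A) is a methyl mark that the METTL3-METTL14 complex places on adenosines of nascent mRNA, mostly within the consensus DRACH, where D stands for any base but C, R for a purine and H for any base but G. In human mRNA it is known to gather around stop codons and in long internal and last exons. Reader proteins of the YTH family bind it and affect the decay and translation of the mRNA, and 3' UTRs also hold the binding sites of microRNAs and of other RNA-binding proteins.

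The IP-rich peaks often carried GGAC, the commonest core of the m6A consensus. The sequences below show this site, in capitals, in 7 peaks from the sets described below. They are 30 bases of the transcribed strand, 5' to 3', centred on the GGAC nearest to the middle of the peak and read from GENCODE transcripts of GRCh38, with DNA letters.
PFDN6, plus strand, chr6:33297970-33297999: cggcctctacccaGGACcggggcggggcgg
ARHGAP45, plus strand, chr19:1086115-1086144: gccgagagcgcctGGACttcgacgtcccac
VEGFA, plus strand, chr6:43785331-43785360: ttggggagcttcaGGACattgctgtgcttt
GALNT14, minus strand, chr2:30910884-30910913: ggtgagctcttgaGGACccctgccagaagc
STARD10, minus strand, chr11:72754863-72754892: cgcaccgcttcagGGACggagacaggaccg
IER5L, minus strand, chr9:129176847-129176876: agcctcggcgcctGGACtcgagccattgtc
WDR34, minus strand, chr9:128633764-128633793: cccgggaagctgaGGACctggactgcctgg
The 3 plus-strand sites lay past the stop codon, by 1103 nt in PFDN6, 122 nt in ARHGAP45 and 782 nt in VEGFA. The VEGFA site, the only one in its peak, lay at the upstream edge of the peak, so part of its printed bases falls outside. Of the minus-strand sites, those of GALNT14 and STARD10 lay 1 nt and 18 nt past it. Those of IER5L and WDR34 lay in the last codons, 25 nt and 36 nt before it, inside peaks that ran on into the 3' UTR.

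Peaks of this ratio made up 15.2% of all listed peaks, 16.7% on the plus strand and 12.4% on the minus strand. Among 3' UTR peaks they made up 9.07% on the plus strand and 15.0% on the minus strand. Of the genes with any listed peak 5.26% held one, and of the genes with a 3' UTR peak 17.2% did. The order of the strands among 3' UTR peaks was thus the opposite of that among all peaks.

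On the plus strand the IP-rich peaks held 5 to 7244 IP reads (median 138) and 1 to 1418 input reads (median 19), against a median of 12 IP and 58 input reads in the 1921 other 3' UTR peaks with input reads. Those of the minus strand held 7 to 9028 IP reads (median 153) and 1 to 1399 input reads (median 20), against 22 IP and 58 input reads in the 1406 others. The members thus came from regions with fewer input reads than the other 3' UTR peaks, which the rule favours. Their median ratio was 6.75 IP reads per input read on the plus strand (quartiles 5.04 and 9.45) and 7 on the minus strand (5.21 and 10.7), against 0.294 and 0.492 in the others.

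**Figure D1:**
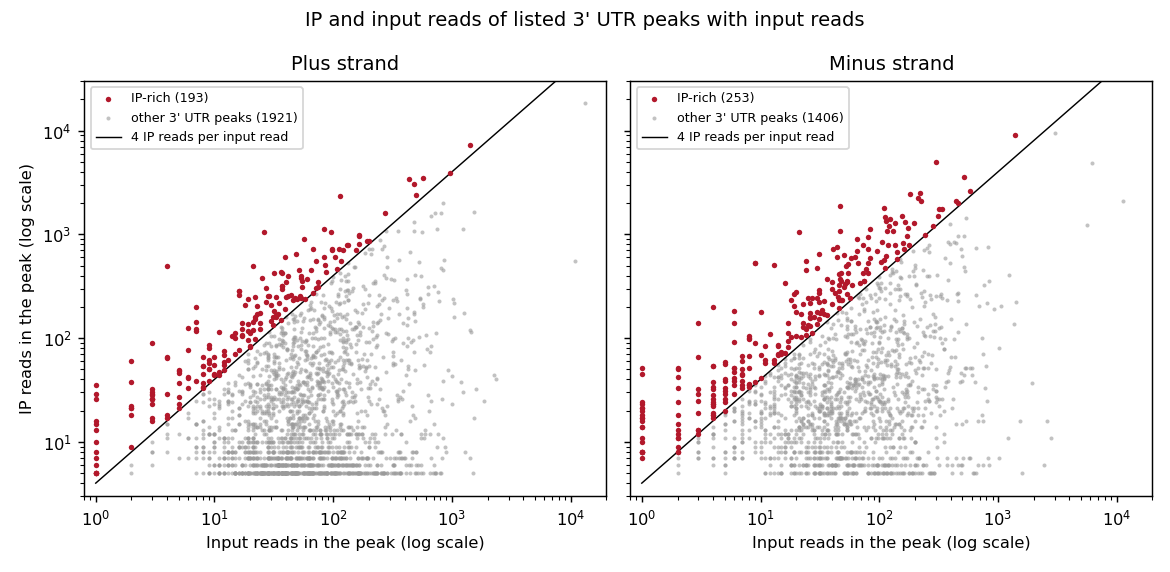
IP reads against input reads of each listed 3' UTR peak with input reads, both on log scales, with plus-strand peaks in the left panel and minus-strand peaks in the right one. Red points are the 193 and 253 IP-rich peaks, grey points the 1921 and 1406 others, and the line marks 4 IP reads per input read; many red points lie at few input reads.

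Few reads made many single ratios uncertain. The lower interval bound reached 4 in 214 of the 446 members, 89 on the plus strand and 125 on the minus strand, and 69 and 100 members had fewer than 10 input reads. Just inside the rule on the plus strand, among peaks with at least 10 input reads, lay SP5 (44 IP and 11 input reads), DDX11 (274 and 68) and GDF11 (49 and 12). Just outside it lay NCBP2-AS2 (532 and 134), FAM43A (158 and 40) and MTG2 (114 and 29). Among minus-strand peaks, ETV4 (979 and 241), CASP9 (41 and 10) and ZNF266 (111 and 27) lay just inside, and RANBP3 (143 and 36), DGCR2 (174 and 44) and CTXN1 (63 and 16) just outside. Both sides of the rule held genes with wide intervals, such as SP5 at a ratio of 4 (2.03 to 8.59) and MTG2 at 3.93 (2.60 to 6.13).

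The members' label was checked against GENCODE transcripts. The genome-left end lay past the stop codon on the transcript used, normally the longest coding one, in 153 of 193 plus-strand members (79.3%) and 229 of 253 minus-strand members (90.5%), against 85.9% and 88.1% of the other 3' UTR peaks. A further 4 and 2 members met this on another coding transcript, and 18 and 14 on a transcript of another type than the one used. Where no complete protein-coding transcript could hold a peak, the transcript used was itself of another type, such as those marked for nonsense-mediated decay. The members of MARS, ARHGEF39 and HNRNPUL2-BSCL2 were of this kind and stood among the 153 and 229. Their positions count from the stop codon of that transcript. In 18 plus-strand and 8 minus-strand members no GENCODE transcript put the left end past a stop codon. These included all peaks of PPP1R11, SERF1A and SERF1B among the members, which lie in annotated coding sequence or 5' UTR, so the label of these peaks goes against this annotation. A total of 10 members could not be placed on a transcript and have no position or sequence below.

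The plus-strand members with the highest lower interval bounds were a mixture of peaks centred in the 3' UTR, in coding sequence and in the 5' UTR of the transcript used. PPP1R11, an inhibitor of protein phosphatase 1, came first with 490 IP and 4 input reads (ratio 122.5, 47.5 to 451), but the middle of its peak lay in the 5' UTR of the transcript used. AKAP17A, an A-kinase anchoring protein and splicing factor of the X and Y chromosomes' shared region, had 1052 IP and 26 input reads (40.5, 27.5 to 62.2) in a last-exon peak whose middle lay 223.5 nt before the stop codon. JDP2, a leucine zipper repressor of AP-1 targets, had 2363 IP and 115 input reads (20.5, 17.0 to 24.998) in a peak centred 345.5 nt past the stop codon of a 4636-nt 3' UTR. JDP2 had the narrowest interval of the 10 genes, relative to its ratio.

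PFDN6, a subunit of the prefoldin chaperone that hands unfolded actin and tubulin to the cytosolic chaperonin, had 499 IP and 21 input reads (23.8, 15.4 to 38.7) over an 800-nt peak with 8 GGAC sites that ended 2 nt from the transcript end. VASH1, a tubulin carboxypeptidase and inhibitor of angiogenesis, had 198 IP and 7 input reads (28.3, 13.5 to 71.3) in a peak 3614.5 nt past the stop codon, without GGAC. ARHGAP45, a GTPase-activating protein, had 894 IP and 57 input reads (15.7, 11.994 to 20.9) at 154.5 nt past the stop codon. The peaks of PFDN6 and VASH1 thus lay close to the far end of the 3' UTR, and that of ARHGAP45 close to its start.

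NAV2, a cytoskeletal protein of migrating and growing neurons, had 1117 IP and 83 input reads (13.5, 10.8 to 17.0) in a 100-nt peak of 43% GC at 359.5 nt past the stop codon, without GGAC. PHLDB1 (610 and 39 reads), DGCR6 (287 and 16) and DDX11 (282 and 16) had ratios of 15.6, 17.9 and 17.6 and were centred in coding exons. The left end of each lay past a stop codon only on a transcript of another type than protein-coding. DDX11, a helicase of sister chromatid cohesion, has near-identical copies in the genome, so its reads are uncertain. The DGCR6 peak overlapped an exon of another coding gene on the same strand, so the gene its reads come from is also uncertain. Of the 10 genes, 5 had the middle of the peak in the 3' UTR, 4 in coding sequence and 1 in the 5' UTR.

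Among minus-strand members the 10 genes with the highest lower bounds had peaks that mostly lay across the stop codon. IER5L, a relative of the immediate early gene IER5, had 1062 IP and 21 input reads (50.6, 32.9 to 82.0) in a 130-nt peak with 4 GGAC sites. TMEM160, a transmembrane protein, had 526 IP and 9 input reads (58.4, 30.6 to 129), and SCAND1, a SCAN-domain protein, had 524 IP and 9 input reads (58.2, 30.4 to 128). Both of the last peaks took in the whole 3' UTR, of 80 nt in TMEM160 and 116 nt in SCAND1.

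GALNT14, an enzyme that starts mucin-type O-glycosylation, had 1872 IP and 47 input reads (39.8, 29.8 to 54.4) in a peak centred 24.5 nt past the stop codon, with 6 GGAC sites. UNC93B1, the chaperone of endosomal Toll-like receptors, had 201 IP and 4 input reads (50.2, 19.3 to 186). STARD10, a phospholipid transfer protein, had 140 IP and 3 input reads (46.7, 15.6 to 229), and AMBRA1, a regulator of autophagy and cyclin D turnover, had 549 IP and 24 input reads (22.9, 15.2 to 36.0). The counts of UNC93B1 and STARD10 show how far an interval opens when the input holds a handful of reads.

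WDR34, an intermediate chain of the dynein that carries cargo inside cilia, had 4994 IP and 302 input reads (16.5, 14.7 to 18.6), and its peak took in all of its 83-nt 3' UTR. ARHGAP22, a GTPase-activating protein of Rac, had 1078 IP and 47 input reads (22.9, 17.1 to 31.4), but its peak was centred 466.5 nt before the stop codon of the transcript used. It was the only one of these 10 peaks that did not reach across the stop codon, and GALNT14 the only one centred in the 3' UTR. GGAC was present in all 10 of these peaks and in 8 of the 10 on the plus strand. Of all members, 76.3% on the minus strand and 67.9% on the plus strand held it, and the shares of other 3' UTR peaks are given below. Longer peaks have more room for the motif, and those of SCAND1 and AMBRA1 spanned 820 nt and 780 nt.

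**Figure D2:**
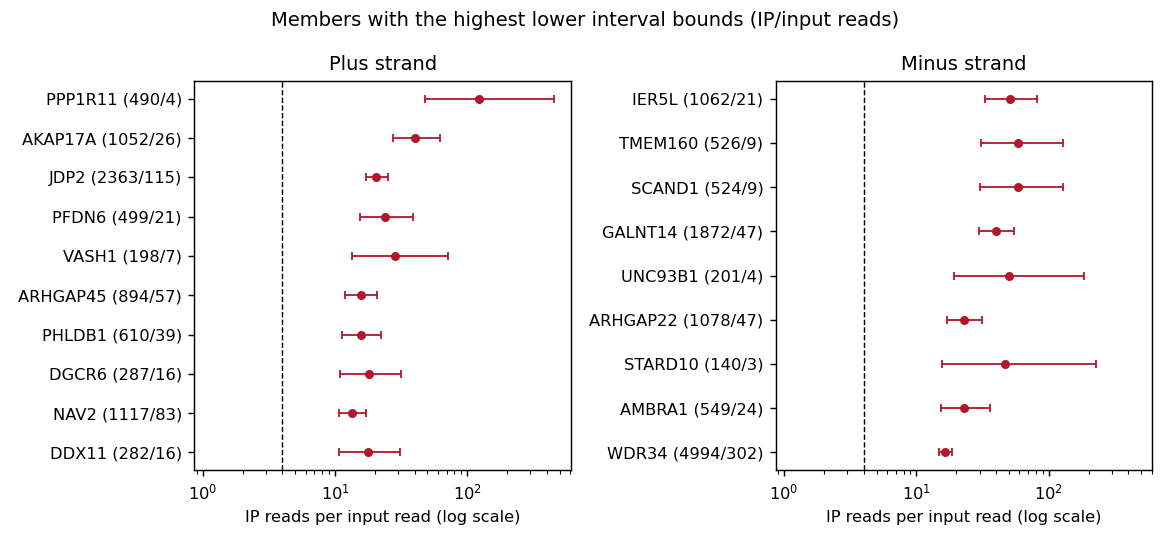
IP reads per input read (log scale) of the genes with the highest lower interval bounds, 10 on the plus strand and 9 on the minus strand, with points at the ratio, bars for the 95% Clopper-Pearson interval, IP and input reads in brackets, and the dashed line at 4. Every bar lies above the line, and the widest, of PPP1R11, UNC93B1 and STARD10, belong to peaks with 4, 4 and 3 input reads.

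The members with the most IP reads also held many input reads. On the plus strand they included MARS, the cytosolic methionyl-tRNA synthetase (3482 IP and 573 input reads), PTMS, parathymosin (3446 and 439), TMED9, a cargo receptor of the early secretory pathway (2376 and 501), and JDP2. Those of the minus strand were MT1G, a zinc- and copper-binding metallothionein (9028 and 1399), WDR34, MCM3, a subunit of the replicative helicase (3534 and 518), PDAP1 (2620 and 583) and ARHGEF39, a guanine nucleotide exchange factor (2505 and 222). Apart from JDP2, WDR34 and ARHGEF39 (11.3, 9.83 to 13.003), the ratios of those named here ran from 4.49 in PDAP1 to 7.85 in PTMS. MT1G belongs to a family of near-identical genes, so its reads may be shared with relatives. The peaks of MARS and ARHGEF39 were placed on transcripts marked for nonsense-mediated decay, since no complete protein-coding transcript could hold them.

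Most genes held a single IP-rich 3' UTR peak, 143 of 166 genes on the plus strand and 185 of 216 on the minus strand. Several genes held 3, among them DDX11 and PHLDB1 on the plus strand and CORO1B, which encodes coronin 1B, a partner of the Arp2/3 complex, and DTNB, which encodes the dystrophin partner beta-dystrobrevin, on the minus strand. HNRNPUL2-BSCL2, a readthrough gene that shares its end with BSCL2, held 4, with 418 IP and 46 input, 356 and 48, 212 and 40, and 94 and 17 reads. The 4 peaks each overlapped the next, so they can share reads. They lay in the last part of the 3' UTR of a transcript marked for nonsense-mediated decay. BSCL2 itself was listed with reads there, so the gene these reads come from is uncertain. In all, 47 members overlapped another member, 25 overlapped an exon of another coding gene on the same strand, and 409 remained once those closer than 100 bp were merged. SERF1A and SERF1B, near-identical copies, each had a peak of 317 IP and 37 input reads.

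The positions of the members differed by strand, as the region column implies. On the plus strand the middle of the IP-rich peaks lay at a median of 591.5 nt past the stop codon (quartiles 151 and 1634, 187 placed peaks), against 775.5 nt in the 1877 other 3' UTR peaks. In minus-strand genes it lay at 100.5 nt past it (59.5 nt before to 672.5 nt past), against 189.5 nt in the 1381 others. The members' median was thus nearer to the stop codon than that of the others on each strand, by less than the distance between the quartiles. On the plus strand it was farther from it than that of the next class, since peaks with 1 to 4 IP reads per input read had a median of 532.5 nt, and 119.5 nt on the minus strand. When members and others were limited to peaks whose left end lay past the stop codon on the transcript used, a choice made after the data were seen, the medians were 903.5 nt in 153 members and 939.5 nt in 1651 others on the plus strand. In minus-strand genes they were then 142.5 nt in 229 members and 311.5 nt in 1239 others.

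Only 5 of 187 plus-strand members reached across the stop codon (2.67%, 0.874 to 6.13%), against 1.81% of the others. Among minus-strand members 110 of 249 did (44.2%, 37.9 to 50.6%), against 37.7% of the others. The middle lay within 200 nt of the stop codon, on either side, in 14.4% (9.74 to 20.3%) of plus-strand members and 10.1% of the others, and in 48.2% (41.8 to 54.6%) of minus-strand members and 40.7% of the others. Far from it, over 1000 nt past the stop codon, lay 37.4% of plus-strand members against 41.9% of the others, and 20.1% of minus-strand members against 26.8%. In the class with 1 to 4 IP reads per input read these shares were 31.3% and 23.2%. Peaks of one gene can overlap, so these intervals may be too narrow.

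**Figure D3:**
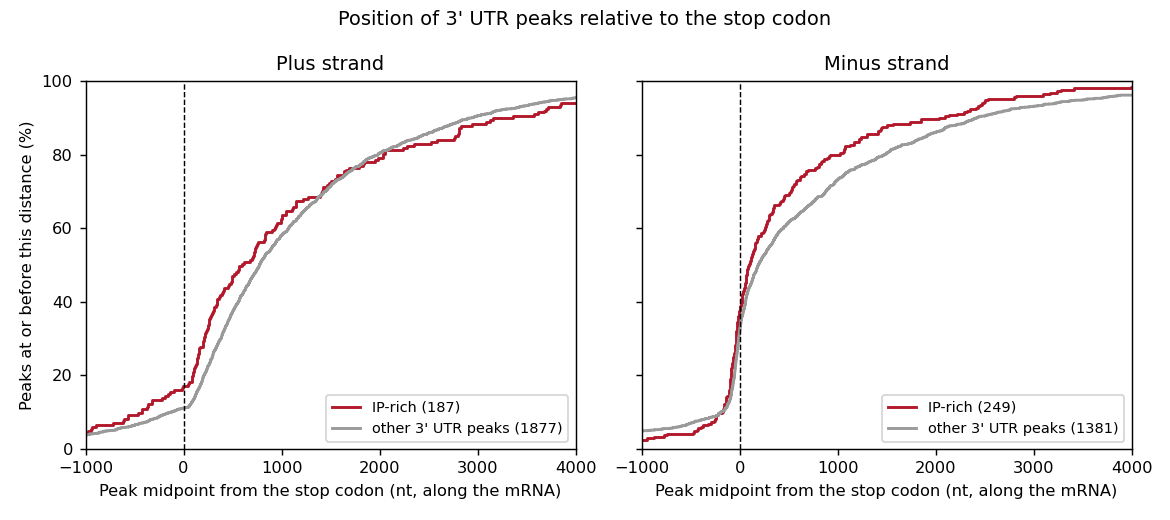
Share of 3' UTR peaks (%) whose middle lies at or before a given distance from the stop codon (nt along the mRNA, negative values in coding sequence), with red steps for IP-rich peaks, grey steps for the others and the dashed line at the stop codon. The minus-strand curves climb steeply at the stop codon, where 44.2% of members reach across it, and the plus-strand curves climb past it.

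To see the members without this effect of the left end, the region was also taken from the middle of each peak, a choice extended to the other 3' UTR peaks after the data were seen. By the middle, 233 plus-strand and 160 minus-strand peaks in 3' UTRs were IP-rich, 9.82% and 14.5% of those with input reads. Of the 233, 76 stood as coding in the region column, against 4 of the 160. The middle lay at a median of 373.5 nt past the stop codon in IP-rich and 633.5 nt in other plus-strand peaks, and at 485 nt in IP-rich and 692.5 nt in other minus-strand peaks. On each strand the IP-rich peaks again had the median nearer to the stop codon. Of the IP-rich peaks, the minus-strand median was now the farther of the strands, where by the region column it was the nearer. Their share within 200 nt past the stop codon was 35.6% against 26.5% on the plus strand and 31.9% against 27.3% on the minus strand. The share that reached across the stop codon was 33.5% against 21.8% on the plus strand and 23.1% against 23.7% on the minus strand, so this measure differed in the same direction only on one strand.

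The 3' UTRs that held the members were of like length to the others on the plus strand, with medians of 2691 nt (quartiles 1379 and 4414.5) and 2566 nt. Those of the minus strand were shorter, with medians of 1532 nt (532 and 3168) against 2330 nt. Minus-strand members ended within 10 nt of the annotated transcript end in 32 of 249 cases (12.9%, 8.96 to 17.7%), against 3.40% of the others, and the 3' UTRs of these 32 had a median of 283.5 nt. TMEM160, SCAND1, STARD10 and WDR34 were among them. On the plus strand 5 of 187 members (2.67%) and 3.41% of the others ended there, PFDN6 and PTMS among the 5. Peak length was alike on the plus strand, at medians of 200 nt in members and 220 nt in others, and 270 nt against 230 nt on the minus strand.

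In sequence the members were richer in G and C than the other 3' UTR peaks. Their median GC content was 58.7% (quartiles 53.0 and 63.0) on the plus strand against 51.5%, and 60% (54.8 and 64.3) on the minus strand against 51.1%. Across all 3' UTR peaks the median GC content was lower in each lower class of ratio, at 58.7%, 55.4%, 52.7% and 49.4% on the plus strand and 60%, 54.6%, 50.7% and 48.9% on the minus strand, for at least 4, 1 to 4, 0.25 to 1 and at most 0.25 IP reads per input read. Base composition can also alter how well fragments are pulled down, amplified and sequenced, and its part in the read ratio was not tested.

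GGAC occurred in 127 of 187 plus-strand members (67.9%, 60.7 to 74.5%) and 58.5% of the others, and in 190 of 249 minus-strand members (76.3%, 70.5 to 81.4%) and 62.4% of the others. Per 100 nt there were 0.527 sites (95% Poisson interval 0.463 to 0.597) in plus-strand members against 0.412 in the others, and 0.718 (0.659 to 0.781) in minus-strand members against 0.453. On the plus strand the members did not stand above the next class, as peaks with 1 to 4 IP reads per input read held 0.518 sites per 100 nt. On the minus strand that class held 0.565. With each member cut into 3 equal parts, the central part held 0.576 sites per 100 nt and the outer parts 0.503 on the plus strand, with intervals that overlap, and 0.845 and 0.655 on the minus strand. The other 3' UTR peaks also held more in the central part, at 0.449 and 0.394 on the plus strand and 0.517 and 0.421 on the minus strand. The full DRACH consensus was found in 94.7% of plus-strand and 96.4% of minus-strand members and in 95.2% and 97.8% of the others. Per 100 nt there were 1.84 DRACH sites in plus-strand members against 1.85 in the others, and 1.92 in minus-strand members against 1.98. Members thus held DRACH no more often than the others, by share or by density, unlike GGAC.

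**Figure D4:**
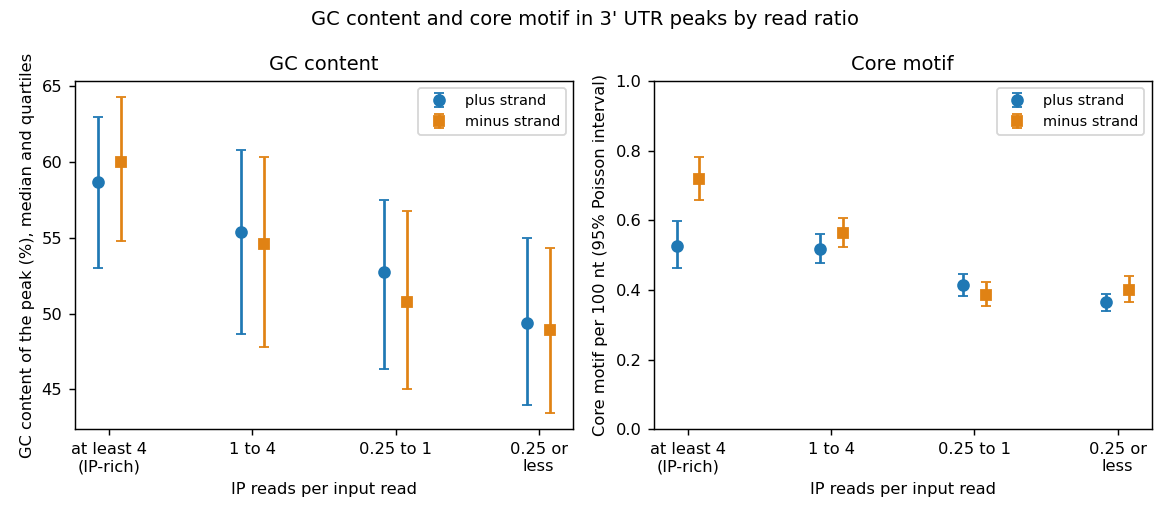
GC content (%, left, points at the median with bars to the quartiles) and sites of GGAC, the core of the m6A consensus, per 100 nt (right, with 95% Poisson intervals) in 3' UTR peaks by IP reads per input read, with blue circles for the plus strand and orange squares for the minus strand. GC is highest in IP-rich peaks on both strands, while the density of the motif is 0.527 on the plus strand and 0.718 on the minus strand in them.

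GGAC holds 3 bases of G or C, so its density was also read at like GC content, with all 3' UTR peaks divided at 48.2% and 56.2% GC. In the GC-rich class members had 0.574 sites per 100 nt on the plus strand (0.490 to 0.668) against 0.504 in the others, and 0.789 on the minus strand (0.717 to 0.867) against 0.579. In the middle class they had 0.554 against 0.423 on the plus strand and 0.600 against 0.457 on the minus strand. In the GC-poor class, with 26 and 20 members, the values were 0.258 against 0.318 and 0.336 against 0.333. The share of 3' UTR peaks that were members was 3.75%, 6.70% and 17.3% from the GC-poor to the GC-rich class on the plus strand, and 3.77%, 11.3% and 29.5% on the minus strand.

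Members that lay wholly in a 3' UTR were also set beside every window of the same length in the same 3' UTR. GGAC was present in 103 of 153 such plus-strand members (67.3%, 59.3 to 74.7%) against 52.8% of windows, and in 89 of 119 on the minus strand (74.8%, 66.0 to 82.3%) against 59.3% of windows. For the other 3' UTR peaks the shares were 57.8% against 52.8% of windows on the plus strand and 59.7% against 52.1% on the minus strand. ATTTA, the core of AU-rich elements that speed mRNA decay, was present in 12.4% of plus-strand and 11.8% of minus-strand members, against 18.1% and 16.8% of windows, with intervals (7.64 to 18.7% and 6.58 to 19.0%) that take in the values of the windows. The other 3' UTR peaks had a like gap, at 19.3% against 25.4% of windows on the plus strand and 19.1% against 26.2% on the minus strand. AATAAA, the signal for cleavage and polyadenylation, was present in 9.80% and 15.1% of members, against 8.99% and 11.1% of windows, with intervals that take in the values of the windows. All motifs were searched on the transcribed strand, and a match is a run of letters and not a shown site.

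The best coding peak of genes with an IP-rich 3' UTR peak had a higher median read ratio than that of genes with 3' UTR peaks but no member. The highest ratio among a gene's other coding peaks had a median of 4.11 in 97 plus-strand genes with a member, against 1.90 in 762 genes with 3' UTR peaks but no member. On the minus strand it was 1.53 in 130 genes against 0.733 in 458. A coding peak that itself met the 4-fold ratio was listed in 49 of the 97 plus-strand genes (50.5%, 40.2 to 60.8%) against 30.6%, and in 37 of the 130 minus-strand genes (28.5%, 20.9 to 37.0%) against 13.8%. Over all coding peaks of these genes, in place of the best of each, the medians were closer on the plus strand, at 0.558 in 354 peaks against 0.455 in 3371, and were 0.511 in 552 peaks against 0.316 in 1492 on the minus strand. Peaks of one gene share its expression and can adjoin or overlap each other, so these values are not independent of the member itself.

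In the 5' UTR the highest ratio had a median of 6.38 in 49 plus-strand genes with a member against 4 in 591 without, and 2.38 in 23 against 1.55 in 76 on the minus strand. Over all 5' UTR peaks the medians were 5 in 70 peaks against 2.50 in 883 on the plus strand, but 1.04 in 28 peaks against 1.34 in 86 on the minus strand, so the order there turned with the measure. Fewer plus-strand genes with a member held a 5' UTR peak at all, 52 of 166 (31.3%) against 61.5%, while on the minus strand the shares were 11.6% and 10.2%. On the minus strand only a peak that ends in the 5' UTR carries that label. Fewer peaks were also listed there, 9620 against 18058 on the plus strand. What part either has in the low minus-strand shares was not tested. The member had the highest ratio of its gene in 88 of 135 plus-strand genes with another listed peak (65.2%) and 143 of 167 on the minus strand (85.6%), and 31 and 49 further genes had no other listed peak with input reads. GALNT14 was a gene of the first kind, with a ratio of 39.8 at the stop codon and at most 0.136 in its 7 coding peaks. JDP2 reached 4.197 in its coding peaks and 20.5 in the 3' UTR. Members were chosen by this ratio and the other peaks were not. The rule thus favours a member on top, and these shares and ranks are a description.

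**Figure D5:**
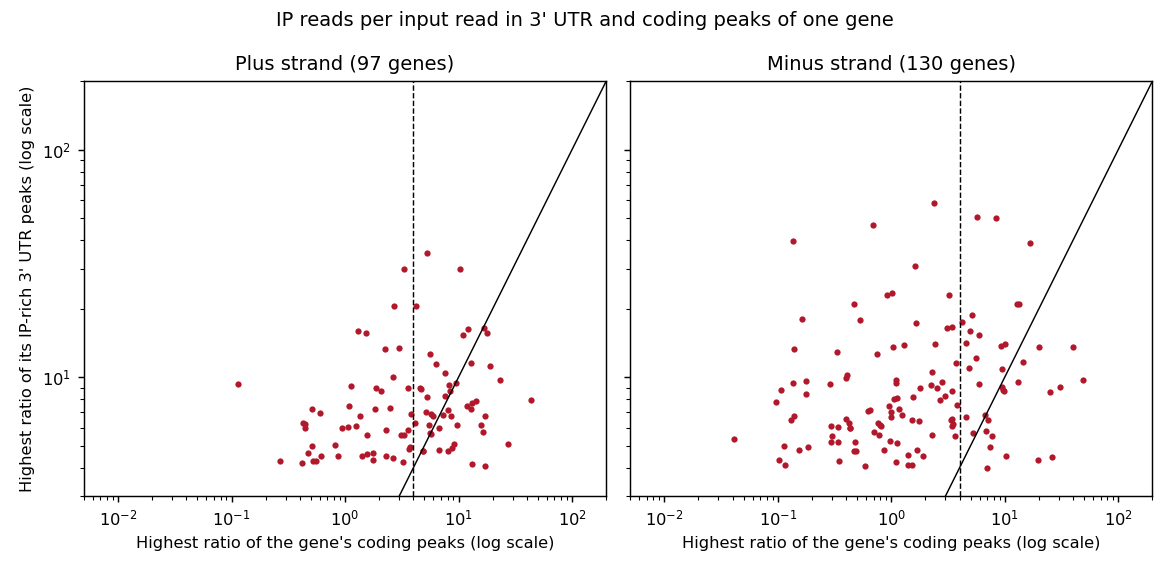
Highest ratio of IP to input reads among a gene's IP-rich 3' UTR peaks against the highest among its coding peaks, both on log scales, for 97 plus-strand genes (left) and 130 minus-strand genes (right), each point a gene. Points above the solid line of equal ratios have the 3' UTR peak on top, and 49 and 37 genes lie at or right of the dashed line at 4 IP reads per input read.

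A total of 25 lists of genes, drawn up with earlier results of these data known, were searched for members, and 14 lists held at least 1. VEGFA, the vascular endothelial growth factor A and the one study target with a member, had 601 IP and 103 input reads (5.83, 4.73 to 7.26) in a 100-nt peak at chr6:43785343-43785442, 830.5 nt past the stop codon of its 1925-nt 3' UTR. Its neighbours in the same 3' UTR held 137 IP and 76 input reads (1.80) upstream and 299 IP and 114 input reads (2.62) downstream. The member was chosen by this ratio, so its rank among these peaks is a description. The highest ratio in VEGFA was not in the 3' UTR but in a 700-nt peak that begins in the 5' UTR, with 1184 IP and 55 input reads (21.5, 16.4 to 28.8). The middle of that peak lay in coding sequence of the transcript used, 869.5 nt before the stop codon. The other angiogenesis gene with a member, of 6 with a 3' UTR peak, was ENG, the TGF-beta co-receptor endoglin of endothelial cells, with 1275 IP and 195 input reads (6.54, 5.62 to 7.64) over an 860-nt peak that reached across the stop codon.

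A single gene came from each of the lists of the RAS and MAPK pathway (1 of 6 genes with a 3' UTR peak), of PI3K, AKT and mTOR (1 of 8) and of the Hippo pathway (1 of 6), shares near or below the 17.2% over all such genes. HRAS, the small GTPase, had 468 IP and 77 input reads (6.08, 4.77 to 7.84), PDPK1, the kinase that activates AKT, had 257 and 29 (8.86, 6.02 to 13.5), and STK4, the Hippo kinase MST1, had 788 and 132 (5.97, 4.96 to 7.23). The peaks of HRAS and PDPK1 held 4 and 2 GGAC sites, and that of STK4, at 46.3% GC, held none. ADAM17, the sheddase of TNF and EGFR ligands, had 354 IP and 74 input reads (4.78, 3.71 to 6.23) across its stop codon, as 1 of 13 genes of integrins, matrix and proteases, and MCM3 was the 1 cell cycle gene of 12. TNRC6C, a GW182 protein and 1 of 3 genes of microRNA silencing (45 and 8 reads), CASP9, an initiator caspase and 1 of 9 apoptosis genes (41 and 10), and RPS24, 1 of 12 ribosomal protein genes (7 and 1), had lower bounds under 4.

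Of the families, the zinc finger (ZNF) genes held a member in 15 of 71 genes with a 3' UTR peak (21.1%), the RAB and ARF GTPases and their partners of like name in 5 of 16, the solute carriers in 6 of 39 and the ubiquitin ligases of the RNF, TRIM and FBX families in 5 of 26. The share for genes with a 3' UTR peak was 17.2% over the whole table, and no family is called apart from it. Among the ZNF genes ZNF142 (469 IP and 30 input reads, 15.6, 10.8 to 23.4), ZNF768 (687 and 65, 10.6, 8.19 to 13.8) and ZNF778 (90 and 3, 30, 9.94 to 148) had the highest lower bounds. ZNF142 was centred 3330.5 nt before the stop codon of the transcript used, so its label rests on a transcript of another type. In the RAB group RAB3IL1, an exchange factor for RAB proteins (184 and 6, 30.7, 13.8 to 84.7), and RAB40C, a GTPase that works with a ubiquitin ligase (262 and 16, 16.4, 9.90 to 29.1), had the highest. ARL2-SNX15 and RAB4B-EGLN2, also counted in that group, are readthrough genes whose peaks overlap exons of SNX15 and EGLN2. The gene their reads come from is thus uncertain. RNF25 (243 and 25, 9.72, 6.43 to 15.3) had the highest of the ubiquitin ligases.

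A further 11 lists held genes with a 3' UTR peak but no member, where 17.2% of all such genes held one. These were the writers and erasers of m6A (3 genes with a 3' UTR peak), its readers (2), breast cancer metastasis mediators (2), receptor tyrosine kinases (6), genes of epithelial-mesenchymal transition and TGF-beta (11), the Wnt pathway (3), immediate early regulators (4), 3' end processing and mRNA decay (6), chromatin regulators (13), glycolysis and hypoxia (8) and cholesterol and fatty acid synthesis (8). Each of these lists had at most 13 such genes, and none is called apart from the share over the whole table. A gene with no listed member may hold the mark below the threshold used here, or have no listed window there.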

How the data were processed

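Per the file headers, the deposited peak table gave for each peak a gene symbol, coordinates, strand, region, one Input and one IP read count, a p-value, an FDR and a window score. The read counts were deposited by the authors as whole numbers without a library number, and were used as the authors' pooled counts. The authors' p-value and FDR were used only to restrict peaks in one alternative, and the authors' score was only summarised, not used to choose peaks. The submitters' processing notes name HISAT2, HOMER and GRCh38 (hg38), with no role. Neither the peak caller nor the library totals are given in the sources used here, so a ratio of 1 is not the absence of enrichment and the depth per library is unknown. Stranded libraries were made from poly(A) RNA, per the labels' protocols. The table listed only windows with at least 5 IP reads and an FDR up to 0.1.

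Of 27855 entries, 177 repeats of a gene and coordinates were left out. Peaks were placed on GENCODE release 29 transcripts by symbol and coordinates, on condition that exons held both ends and that the spliced peak had a multiple of 10 nt. The longest coding transcript was used where there was a choice, and one of another type where no coding one met these conditions. Motifs were counted on the transcribed strand. Computations used Python 3.11.15, numpy 2.4.6, pandas 2.3.3, scipy 1.17.1 and matplotlib 3.10.9. The motif search and the ratio and median intervals were tested on simulated data, and the placing of peaks was not part of that test. No test was made between groups, since the table held no replicate values, and 0 per-sample columns were left unused.

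The members and gene lists were chosen with earlier results of these data known. The genes named were, per strand, the 10 with the highest lower interval bound, the 5 with most IP reads, those of the gene lists, the 3 members just above and the 3 peaks just below the threshold with at least 10 input reads, and the 3 genes with most members. PPP1R11, SERF1A, SERF1B and BSCL2 were also named for their labels or shared reads after their values were seen. Some genes that the rule selects are not reported here. Alternatives changed the fold, the minimum input, the pseudocount, the FDR, the region, repeats, overlap and transcript.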

Additional observations from a re-analysis of the deposited data

How the results depend on the processing

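Of 116 values recomputed under other settings, 98 kept within 1.5 times the count or inside the interval of the value reported, and 18 moved. At a threshold of 8 IP reads per input read, 68 plus-strand and 111 minus-strand members were left; with a lower interval bound of at least 4, 89 and 125 were. With the region taken from the peak's midpoint, 160 minus-strand peaks qualified, and the share across the stop codon became 33.5% on the plus strand and 23.1% on the minus strand. The median distance from the stop codon then became 373.5 nt and 485 nt, GGAC was in 75.5% of plus-strand peaks, and median GC on the minus strand was 58.2%. For members whose left end lay past the stop codon on the transcript used, an alternative chosen after seeing the data, the plus-strand values were 0% across the stop codon, by construction, and 903.5 nt. At this threshold of 8, the median GC on the plus strand was 59.9% and the median best 5' UTR ratio 10.98. On the minus strand the distance was then 33.5 nt, the GGAC density 0.794 per 100 nt and the median best coding ratio 2.90. Apart from the region, where the alternative redefines the set, the cause was not tested.

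No paired analysis was possible because the table gave 1 pooled count of each kind per peak, with no library number. For the same reason leaving out a library could not be run. Peaks share genes, reads and sometimes bases, single ratios rest on as little as 1 input read, and without library totals they can be compared only within this table.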

Other observations

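A further 45 peaks in 3' UTRs had no input reads and stand outside the members, 14 on the plus strand and 31 on the minus strand. They held 5 to 23 IP reads (median 13) and 5 to 44 IP reads (median 11). Against a floor of 3 counts per peak, 9 and 13 of them had at least 4 IP reads per count. CASC10 (44 IP reads, 14.7 per count of the floor) and HES2, a transcriptional repressor of the Hairy/E(spl) family (41 IP reads, 13.7 per count of the floor), had the most, and were named after their values were seen. The floor was set by choice, so these values are no measure of enrichment. Of the 45, 3 on the minus strand and 0 on the plus strand lay in a gene that also holds a member.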
